A study of Mus musculus with 2 samples.

Results

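Cluster 6 of the authors' clustering held 148 of 7863 colonic cells in the series, 117 in the Mettl14 WT library and 31 in the Mettl14 KO library. Its members were all cells that the deposited cell table places in that cluster. Both libraries came from C57BL/6 mice and were single preparations of live cells sorted for EpCAM, an epithelial surface protein, and taken through 10x Genomics 3′ V2 chemistry. One carried the genotype label Mettl14 WT and the other Mettl14 KO. The product of Mettl14 is part of the enzyme that adds N6-methyladenosine (m6A) to RNA. The series text gives an age or interval of 2 weeks without naming its start. The labels state neither how many animals each library pooled, nor the deleted exons, nor a Cre driver. With 1 library per genotype there was no test. Intervals below are exact 95% intervals for counting error only, of the Poisson kind for levels, the conditional binomial kind for ratios and the Clopper-Pearson kind for shares. Levels are a gene's unique molecular identifiers (UMIs) over the summed UMIs of its group, per 1000000 UMIs (CPM). The WT cells carry the account because the KO library gave few members.

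The connective tissue under the colonic epithelium is made by fibroblasts, which secrete the fibrillar collagens, the proteoglycans that coat them and signals of the Wnt and BMP families for crypt cells. Pericytes wrap small vessels, and glia accompany enteric neurons. S100a8 and S100a9 are calcium-binding proteins stored in bulk by neutrophils, C1qa, C1qb and C1qc are the chains of complement C1q made by tissue macrophages, and Spp1 (osteopontin) is a secreted phosphoprotein made by several epithelial, bone and myeloid cell types.

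The genes that separated the cells lie at Col3a1 (chromosome 1:45311538-45349706, plus strand), Col1a1 (chromosome 11:94936224-94953042, plus), Dcn (chromosome 10:97479609-97518143, plus), Postn (chromosome 3:54361109-54391037, plus), S100a9 (chromosome 3:90692632-90695721, minus), Spp1 (chromosome 5:104435118-104441050, plus) and Rgs5 (chromosome 1:169655501-169695813, plus) of GRCm38, in the GENCODE vM21 annotation, which lists all of them as protein coding. The 150 bases before the RefSeq start (GRCm38.p6, 5′ to 3′ on the gene's strand) are shown for 4 genes, each leading in cells described below and none overlapping an annotated exon. Capitals mark either of a pair of motifs. The first was TATAAA, or TTTATA when read on the opposite strand. The other was CCAAT, read there as ATTGG.
Col3a1 (fibroblast-like and pericyte-like cells; chr1:45311388-45311537, plus): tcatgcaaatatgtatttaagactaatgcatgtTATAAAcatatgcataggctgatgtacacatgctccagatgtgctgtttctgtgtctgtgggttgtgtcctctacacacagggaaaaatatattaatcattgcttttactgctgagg
Rgs5 (pericyte-like cells; chr1:169655351-169655500, plus): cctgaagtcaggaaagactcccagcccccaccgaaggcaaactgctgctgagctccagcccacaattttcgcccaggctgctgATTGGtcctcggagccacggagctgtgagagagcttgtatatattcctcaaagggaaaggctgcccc
S100a9 (the S100a8 and S100a9 cells; chr3:90695722-90695871, minus): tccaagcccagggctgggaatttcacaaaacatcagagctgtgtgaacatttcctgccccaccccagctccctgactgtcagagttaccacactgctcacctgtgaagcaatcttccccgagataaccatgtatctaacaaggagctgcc
Spp1 (the Spp1 cells; chr5:104434961-104435110, plus): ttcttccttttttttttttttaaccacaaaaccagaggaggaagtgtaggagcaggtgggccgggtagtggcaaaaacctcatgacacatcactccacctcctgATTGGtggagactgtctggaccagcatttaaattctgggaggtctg
TATAAA occurred in the Col3a1 window, CCAAT in those of Rgs5 and Spp1, and neither in that of S100a9. Over 32851 RefSeq windows of the same length, 7.57% held TATAAA and 24.5% held CCAAT. Of the 25 leading genes below, 14 had a window, of which 1 held TATAAA and 2 held CCAAT. A match is a description of these letters and not of a bound site.

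WT cluster 6 made up 2.78% (2.30 to 3.32%) of 4210 cells, with 636857 UMIs in all, and KO cluster 6 made up 0.849% (0.577 to 1.20%) of 3653 cells, with 119655 UMIs. The cells were shallow. Their median was 3728 UMIs and 1714 genes in WT and 2415 UMIs in KO, against 12192 UMIs and 3210 genes in WT clusters 0 to 5. The median mitochondrial share was 10.8% in WT cluster 6 and 11.9% in WT clusters 0 to 5. No cell barcode of cluster 6 occurred in both libraries, and 2 did over the whole series. Mettl14 had 8 UMIs in 8 of the 117 WT cells (12.6 CPM, 5.42 to 24.8) and none in the 31 KO cells, where the 3 UMIs that a count of 0 allows would be 25.1 CPM, so no difference was detectable there. In clusters 0 to 5 Mettl14 stood at 10.5 CPM in WT and 5.36 CPM in KO. Mettl3, another m6A factor, was also lower in KO there, at 7.46 CPM (6.61 to 8.39) against 13.3 CPM (12.4 to 14.3). Since the deleted part is not given, the 3′ counts need not test it.

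By these markers the stromal name fitted about as many WT cells as not. Of the 4 gene groups, collagen (Col1a1, Col1a2 and Col3a1 summed) reached 3 UMIs in 59 of 117 WT cells, Spp1 in 15, C1q in 4 and S100a8 and S100a9 in 2. Collagen and C1q overlapped in 3 cells, and 40 cells carried none of the groups. Cells carrying Epcam UMIs numbered 59 of 117 despite the EpCAM gate, and in 49 of these Epcam reached 3 UMIs. Epcam stood at 865 CPM (794 to 941) in WT cluster 6 against 1619 CPM in WT clusters 0 to 5, a log2 ratio of -0.90 (-1.03 to -0.78).

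Against WT clusters 0 to 5, WT cluster 6 was at least 2-fold higher, with an interval that excludes equal levels, for 2294 of 13960 measured genes (16.4%), and 683 genes (4.89%) lay that far below. All genes had been used to form the cluster, so these values describe it and test nothing. A gene was measured with 20 UMIs over both groups, so it could enter through cluster 6 alone. Ccdc80, for example, had 56 UMIs there and 1 in clusters 0 to 5. Counts and medians over measured genes, here and in the lists below, are in part set by this cut. The 25 genes with the highest lower bound of the ratio were matrix, vessel-wall and fibroblast genes. Col3a1, the chain of type III collagen, had 1600 UMIs in 62 cells (2512 CPM, 2391 to 2639) against 3.63 CPM in clusters 0 to 5, a log2 ratio of 9.44 (9.23 to 9.65). Col1a1 and Col1a2, the chains of type I collagen, stood at 1404 and 1478 CPM against 1.63 and 1.95 CPM. Aspn, a small collagen-binding proteoglycan, stood at 444 CPM against 0.319 CPM, a log2 ratio of 10.44 (9.77 to 11.20). Adamdec1, a metalloprotease of gut fibroblasts, stood at 655 CPM against 0.772 CPM. Bmp4, a BMP ligand, stood at 242 CPM against 0.218 CPM, and the chemokine Cxcl12 at 292 CPM against 0.285 CPM. Rgs5, a G-protein regulator of pericytes, and Acta2, smooth muscle actin, stood at 528 and 410 CPM. None of the 25 was above 9.93 CPM in any single cluster from 0 to 5.

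**Figure D1:**
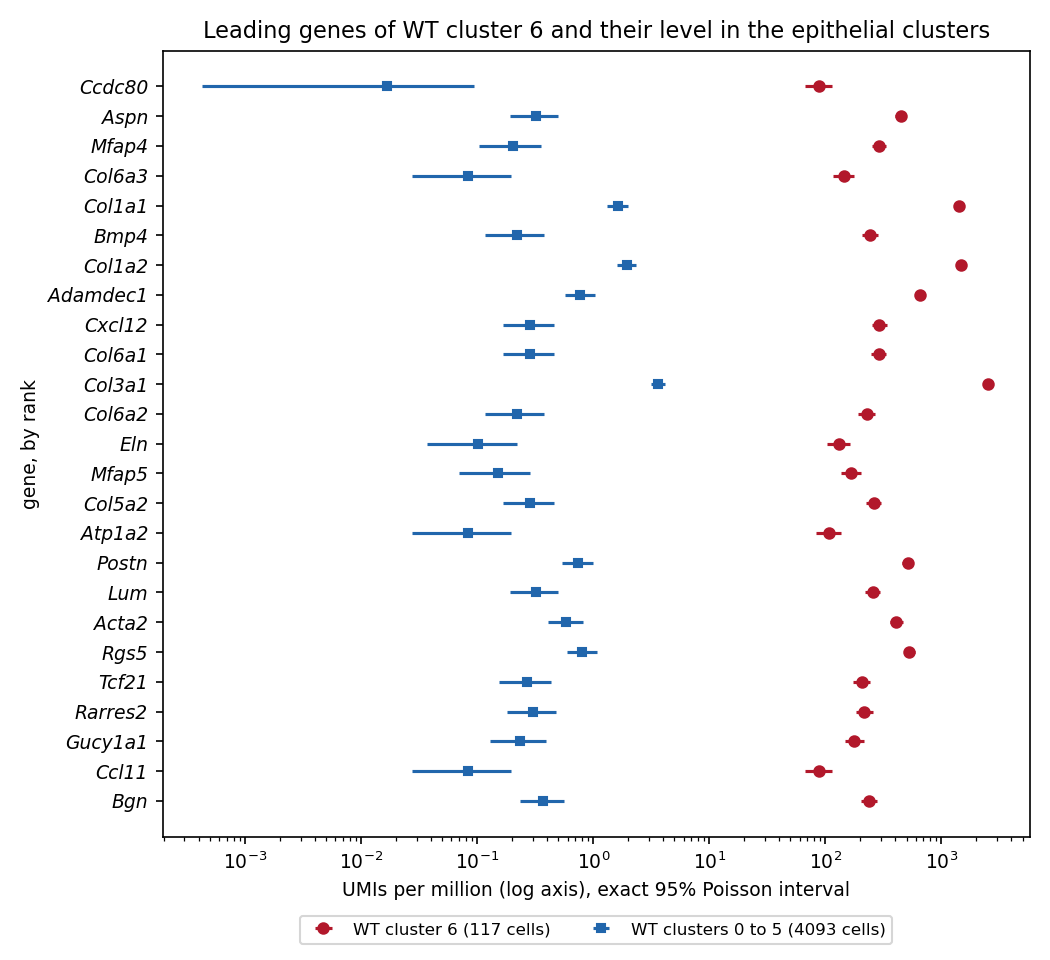
Level in CPM (log axis) of the 25 leading genes in WT cluster 6 (117 cells, circles) and in WT clusters 0 to 5 (4093 cells, squares), with exact 95% Poisson intervals. Every gene lies to the right in cluster 6, where Col3a1 reaches 2512 CPM, and the epithelial clusters stay at or below 3.63 CPM.

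Grouped by role, the matrix lists were higher almost throughout, where 16.4% of all measured genes were at least 2-fold higher and 4.89% as far below. All 6 measured fibrillar collagens were at least 2-fold higher (median log2 ratio 9.50, against 0.32 over all measured genes, with genes at 0 placed at a floor of 3 counts). So were all 6 microfibril, beaded and FACIT collagens (median 9.69), among them Col6a1 at 289 CPM, Col6a2 at 228 CPM and Col6a3 at 144 CPM, the chains of type VI collagen. Of 17 basement membrane and network genes, 14 were higher and 2 lower (median 6.77), with Col4a1 at 551 CPM and Col4a2 at 333 CPM against 1.95 and 1.01 CPM. Of 7 small leucine-rich proteoglycans 5 were higher (median 8.98). Dcn, decorin, stood at 747 CPM (682 to 818) in 47 cells against 1.48 CPM, and Prelp had a log2 ratio of 0.69 (-0.19 to 1.44). All 24 measured matricellular and adhesive glycoproteins were higher (median 7.96). Sparc, a collagen-binding glycoprotein, stood at 2019 CPM in 79 cells against 7.97 CPM, Postn, periostin, at 512 CPM (458 to 571) in 45 cells against 0.739 CPM, and Fn1, fibronectin, at 372 CPM against 1.53 CPM.

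Of 18 measured genes that fold, process and crosslink collagen, 15 were higher (median 4.79), such as the collagen chaperone Serpinh1 at 300 CPM against 1.12 CPM and the crosslinking oxidases Lox and Loxl1 at 67.5 and 70.7 CPM against 0.168 and 0.118 CPM. The folding enzymes P4hb and Ppib had log2 ratios of -0.38 and 0.46. Matrix proteases and inhibitors were higher for 13 of 15 (median 4.81), with Mmp2 at 130 CPM against 0.386 CPM and Timp3 at 185 CPM against 56.2 CPM. Of 10 measured cytoskeletal and contractile genes 8 were higher, with Tagln at 170 CPM and Myl9 at 210 CPM against under 0.5 CPM in clusters 0 to 5. The share over all measured genes was 16.4% higher.

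Signals for crypt cells were present at lower levels. Beside the counts below, 16.4% of all measured genes were at least 2-fold higher and 4.89% as far below. Of 7 measured genes of the Wnt and R-spondin list 6 were higher. Wnt4, a Wnt ligand, had 89 UMIs in 31 cells (140 CPM), and Sfrp1, a secreted Wnt inhibitor, had 55 UMIs in 28 cells (86.4 CPM), against 0.604 and 0.252 CPM. Wnt5a had 7 UMIs in 7 cells (11.0 CPM, 4.42 to 22.6). Of 9 BMP and TGF beta genes 7 were higher, led by Bmp4 and by Fstl1, a secreted BMP-binding protein, at 218 CPM against 0.671 CPM. Of 16 growth factors and receptors of mesenchyme 10 were higher, with the IGF-binding proteins Igfbp7 at 614 CPM and Igfbp3 at 97.4 CPM, and Vegfa and Kitl were within 2-fold. Of 25 mesenchymal transcription factors 15 were measured, and 9 of these were higher (median 5.87). Tcf21 stood at 206 CPM against 0.269 CPM, Zeb2 at 301 CPM against 2.72 CPM and Foxf1 at 53.4 CPM against 0.101 CPM. Of 11 epithelial transcription factors 7 were lower, none was higher, and 4 were within 2-fold or had an interval reaching equal levels. Klf5 stood at 248 CPM against 740 CPM, and Sox9 at 334 CPM against 284 CPM.

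Collagen UMIs lay in few other WT cells. Of the WT library's UMIs, cluster 6 held 88.1% for Col3a1, 90.2% for Col1a1, 84.4% for Dcn and 88.1% for Postn. Collagen reached 3 UMIs in 50.4% (41.0 to 59.8%) of WT cluster 6 and in 9 of 4093 cells (0.220%) of clusters 0 to 5. At 1 UMI the shares were 53.0% and 2.52%, with median depths of 3728 and 12192 UMIs. With each cell thinned to 1000 UMIs, which left out no cell of these 2 groups, collagen reached 3 UMIs in 51 and 1 cells. Near the cut, 3 cells of WT cluster 6 had 1 or 2 collagen UMIs and 11 had 3 to 9.

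**Figure D2:**
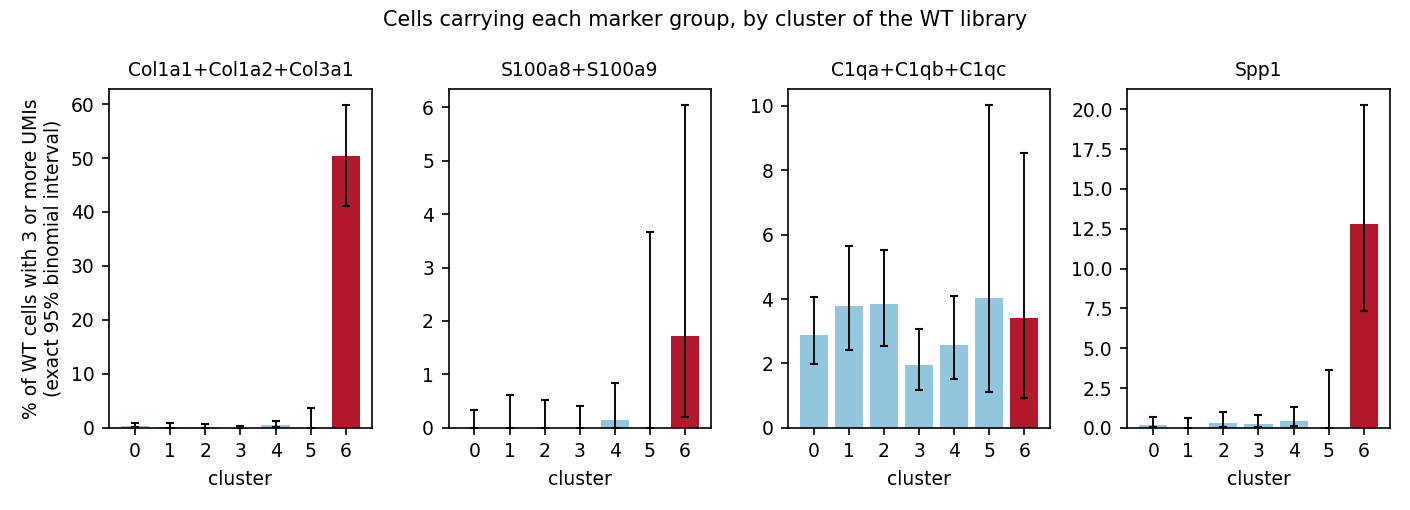
Share of WT cells with at least 3 UMIs of each gene group (bars, percent, each panel on its own scale) by the authors' cluster, with exact 95% binomial intervals. Cluster 6 stands above the others for collagen (50.4%) and Spp1 (12.8%), its S100a8 and S100a9 share rests on 2 cells, and its C1q share (3.42%) lies among those of the other clusters.

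Among the 59 WT collagen cells, Col3a1 ranged from 2 to 133 UMIs with a median of 18, Col1a2 from 1 to 97 with a median of 7, and Col1a1 from 0 to 90 with a median of 8. Dcn was found in 44 of them and Postn in 43. The collagen counts thus differed widely between cells, and S100a9 and Spp1 were at 0 in all 59. The cells also led with Adamdec1 (1501 CPM), Aspn (1021 CPM) and Ifitm1 (761 CPM), a membrane protein induced by interferon, each at or under 2.78 CPM in the other WT cells of the cluster.

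Epcam divided the collagen cells into a shallow and a deep set. In 50 cells Epcam was at most 1 UMI, the median depth was 2576 UMIs and the 14 pan-epithelial markers summed to a median of 1 UMI. In the other 9 cells Epcam ranged from 3 to 42 UMIs with a median of 20, the median depth was 13902 UMIs and the epithelial markers summed to a median of 109 UMIs. The depths of the sets did not overlap, at 1349 to 7465 UMIs against 8061 to 24491. Col3a1 stood at 8172 CPM in the shallow set and 3228 CPM in the deep set, while its median per cell was 15 and 38 UMIs. Of the deep cells 6 had Xist without Y-linked UMIs, none had Y-linked UMIs without Xist and 2 had both, against 16, 12 and 1 of the shallow cells. Whether the deep droplets held 2 cells was not tested.

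**Figure D3:**
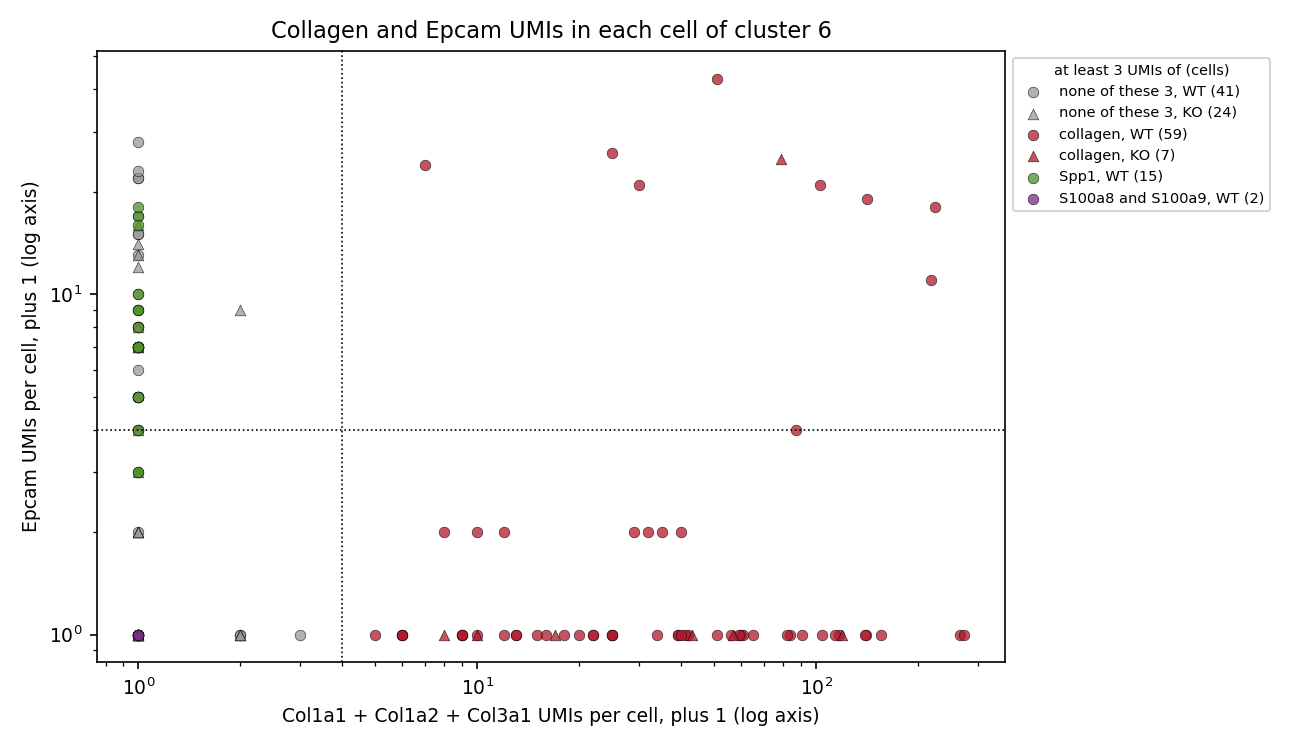
Summed Col1a1, Col1a2 and Col3a1 UMIs against Epcam UMIs in each of the 148 cells of cluster 6, both plus 1 on log axes, with circles for WT and triangles for KO and dotted lines at 3 UMIs. Most collagen cells lie on the floor of Epcam, 9 of the WT collagen cells lie above 2 Epcam UMIs, and the 15 Spp1 cells all have Epcam and no collagen UMI.

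A clustering of the 148 cells alone gave 10 sub-clusters, of which 4 were named from marker lists. Sub-cluster 0, fibroblast-like, was the largest with 33 WT and 5 KO cells. It was led by Mfap4 and Bmp4, with 160 UMIs in 32 cells and 141 UMIs in 31 cells, and carried Col3a1 in all 38 cells (11010 CPM) and Dcn in 37. Sub-cluster 6, also fibroblast-like, held 9 WT and 1 KO cells, all 10 with Epcam, at a median depth of 13947 UMIs. Sub-cluster 1, pericyte-like, held 14 WT and 1 KO cells. Rgs5 ranged from 1 to 37 UMIs in its 15 cells with a median of 17, and the potassium channel genes Abcc9 and Kcnj8 were each found in 11. Its Col3a1 level (3103 CPM) was below that of sub-cluster 0, and Dcn was found in 5 of 15 cells. All 15 cells reached 3 collagen UMIs. At Leiden resolution 0.5 sub-cluster 0 kept its 38 cells and the Rgs5 cells lay in a group of 23, and at resolution 2 the Rgs5 group held 14 of the 15 while sub-cluster 0 was split.

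Vessel and glial genes lay in other sub-clusters. Collagen reached 3 UMIs in none of the 8 cells of sub-cluster 2 and in 3 of the 14 of sub-cluster 7. Sub-cluster 2 (5 WT and 3 KO cells) was led by Fabp4, a fatty-acid-binding protein, Eln, elastin, and Plvap, a protein of vessel fenestrae. The sub-cluster held 141, 127 and 24 UMIs of these, in 5, 5 and 4 of its cells, and 90 of the Eln UMIs lay in 1 KO cell. Pecam1, an endothelial adhesion molecule, was found in all 8 of its cells and the endothelial list stood at 6472 CPM, yet its leading genes held as many markers of another list and it stayed unnamed. Sub-cluster 7 (7 WT and 7 KO cells) was led by Fabp7, Dtna and Gpr37l1. Sox10, a transcription factor of glia, was found in 12 of its 14 cells and had 3 UMIs in all of WT clusters 0 to 5. It was the shallowest sub-cluster, with a median of 1422 UMIs and no Epcam UMI. Its macrophage list level of 11979 CPM was almost wholly Apoe, with 274 of 275 UMIs.

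**Figure D4:**
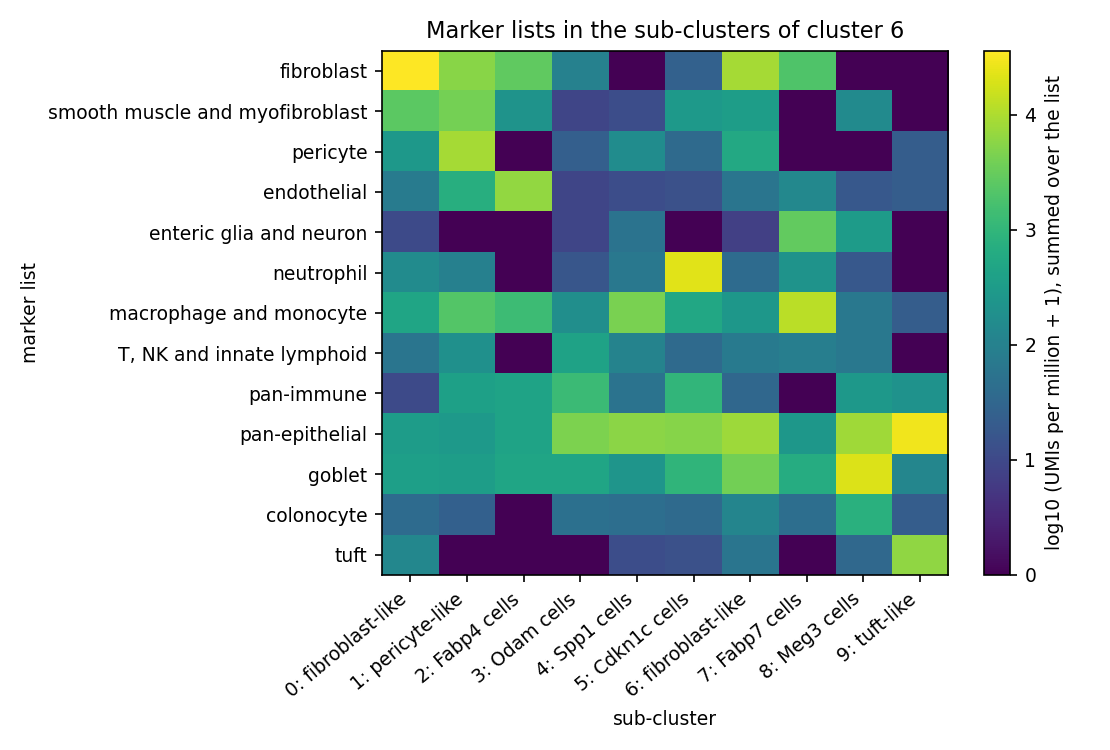
Summed level of 13 marker lists (rows) in the 10 sub-clusters of cluster 6 (columns), as log10 of (CPM + 1). Fibroblast markers are highest in sub-cluster 0, pericyte markers in 1, endothelial in 2, neutrophil in 5 (2 cells), glial in 7, goblet in 8 and tuft in 9.

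S100a8 and S100a9 came from 2 WT cells. They had 525 and 391 UMIs of S100a9 and 441 and 269 UMIs of S100a8, at depths of 2746 and 2711 UMIs. These cells held 916 of the 931 S100a9 UMIs of the WT library and 710 of the 737 S100a8 UMIs. The 14 genes of the neutrophil alarmin and granule list made up 386659 CPM of the pair. Retnlg, a resistin-like secreted protein of neutrophils, had 34 and 111 UMIs, Ltf, lactoferrin, 39 and 3, Lcn2, lipocalin 2, 56 and 33, and the proteases Mmp8 and Mmp9 between 3 and 7. Both cells lacked Epcam, collagen, C1qa and Spp1 UMIs. For the list over the cluster, 10 of 11 measured genes were at least 2-fold higher, and these 2 cells held 2110 of its 2224 UMIs. The 3rd cell of WT cluster 6 with an S100a8 UMI had 1, in a collagen cell. No KO cell of the cluster had an S100a8 or S100a9 UMI (0 of 31, and a floor of 3 cells allows a share of cells with a UMI of up to 9.68% at this depth), while S100a9 had 195 UMIs in the KO library outside the cluster.

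C1q was found in few cells in and out of the cluster. It reached 3 UMIs in 4 of 117 WT cells (3.42%, 0.939 to 8.52%) and in 121 of 4093 cells of clusters 0 to 5 (2.96%), and at 1 UMI in 7.69% and 11.4% of cells. By level C1qa was higher in cluster 6, at 36.1 CPM (22.9 to 54.2) against 13.1 CPM, with 23 of the library's 802 UMIs. With each cell thinned to 1000 UMIs, C1q reached 1 UMI in 2.56% of cluster 6 and 2.39% of clusters 0 to 5, and 3 UMIs in 2 and 9 cells. The order of the shares thus changed with depth and threshold, and none is read from them. Of the 4 cells, 1 had 3 C1qa UMIs, no C1qb, C1qc or collagen UMI and 516 UMIs of Defb50. The other 3 had 6 or 7 C1qa UMIs and between 6 and 21 collagen UMIs. Rgs5 was found in each of these 3, with 39, 26 and 1 UMIs, and Apoe with 18, 19 and 22. MHC class II genes were within 2-fold or had intervals reaching equal levels for all 7 measured.

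The immune marker lists below stood above clusters 0 to 5 in summed level, with most UMIs from few genes or cells. Over all measured genes, 16.4% were at least 2-fold higher and 4.89% as far below. Of 12 measured macrophage and monocyte markers 5 were higher and 1 lower (1203 against 154 CPM), and Apoe, a lipoprotein component that other cells also make, gave 642 of the 766 UMIs. Of 7 pan-immune markers 6 were higher (468 against 36.0 CPM), found in 20 of 117 cells against 555 of 4093. Of their 298 UMIs, 165 were Cd52 in 4 cells of sub-cluster 3 and 72 lay in the 2 cells with S100a8 and S100a9. Of 5 measured T, NK and innate lymphoid markers 2 were higher, Gata3 with 53 UMIs and Rora with 38 of the list's 95 (149 against 7.24 CPM), while Cd3e, Cd3d and Cd3g were at 0. Sub-cluster 3 held 54 of the list's UMIs. Gata3 was found in 12 of its 15 cells, and Epcam in 14. Of 5 B cell markers 1 was higher, Ebf1 with 124 of 126 UMIs (198 against 3.04 CPM), and Cd79a and Ms4a1 were at 0. Ebf1 was also among the leading genes of pericyte-like sub-cluster 1, in all 15 of its cells. The part of these lists in the other results was not tested.

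Spp1 marked 15 WT cells that carried epithelial genes and no collagen. Spp1 ranged from 20 to 261 UMIs per cell with a median of 66 (15831 CPM, 15029 to 16666), and no other WT cell of the cluster had an Spp1 UMI. The 15 cells held 1457 of the 1973 UMIs of the WT library (73.8%), and in WT clusters 0 to 5 Spp1 reached 3 UMIs in 9 cells. All 15 had Epcam, from 2 to 17 UMIs with a median of 6, and all 15 had Krt18, a simple-epithelium keratin. Clusterin (Clu) was found in all 15 at 6030 CPM against 73.4 CPM in the other WT cells of the cluster, a log2 ratio of 6.36 (5.90 to 6.86). Tm4sf4, a membrane protein of the tetraspan family, stood at 1239 CPM against 5.51 CPM. Ambp, a secreted protease inhibitor and lipocalin precursor, had 66 UMIs in 13 cells and none in the other WT cells of the cluster. The homeobox factor Hhex was found in 14 cells (359 CPM) and Dcdc2a in 12. Apoe was found in all 15 with 398 UMIs, which was nearly the whole of their macrophage list (406 UMIs). The immune markers of the pan-immune list were found in 1 of the 15. In 9 cells there were Y-linked UMIs without Xist, and in none Xist at 3 UMIs without Y-linked UMIs. Spp1 itself is in the matricellular and in the lipid-associated macrophage list, so the levels of both lists in these cells include it.

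Of the 40 WT cells without any of the 4 groups, 26 reached 3 Epcam UMIs. They fell into sub-clusters 3 (14 cells), 8 (7 cells), 9 (6 cells), 2 (5 cells), 7 (4 cells) and 5 (4 cells). Sub-cluster 3 held 15 WT and no KO cells and had Odam and Pbsn among its leading genes. Pbsn, probasin, a secreted lipocalin known from the prostate, had 241 UMIs in 7 of the cells, of which 153 lay in 1 cell, and Defb50, a beta-defensin, 1256 UMIs in 8. All 7 Pbsn cells had Defb50, 1 cell had Defb50 alone, and the other 7 had neither. Gata3, a transcription factor, was found in 12 of the 15. Cd52 made up all 165 of its pan-immune UMIs, in 4 cells and with 91 in 1 cell. Y-linked UMIs without Xist were found in 12 of the 15 cells and Xist at 3 UMIs without Y-linked UMIs in none. In the KO library Pbsn and Defb50 had 0 UMIs.

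Sub-cluster 9, tuft-like, held 6 WT and no KO cells. Tuft cells are chemosensory epithelial cells. Dclk1, a kinase that marks them, ranged from 8 to 26 UMIs per cell with a median of 22, Rgs13 from 10 to 24 and the taste-pathway channel Trpm5 from 1 to 8. Epcam was found in all 6, from 4 to 27 UMIs. The 6 cells held 118 of the 224 Dclk1 UMIs of the WT library. Sub-cluster 8 (7 WT and 2 KO cells) carried goblet genes, with Muc2, the gel-forming mucin, and Agr2, its folding partner, in all 9 cells, and Epcam at 3 UMIs in all 9. Its goblet list level was 20475 CPM, with 502 of 1229 UMIs in 1 cell. In WT clusters 0 to 5 the list stood at 14531 CPM, with a UMI in 3900 of 4093 cells. Sub-cluster 5 (6 WT and 12 KO cells) was led by few cells, with Cdkn1c in 3 and Cd52 in 4 of 18, and contained the 2 S100a8 and S100a9 cells. Epcam was found in 12 of its 18 cells and reached 3 UMIs in 8. Its pan-epithelial list stood at 5430 CPM, with a UMI in 16 cells, against 10154 CPM in WT clusters 0 to 5. Sub-clusters 3, 4 and 9 came from the WT library alone. With 0 of 31 KO cells, a floor of 3 cells allows a share of up to 9.68%. Whether these sub-clusters reflect that library or a kind of cell was not tested.

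**Figure D5:**
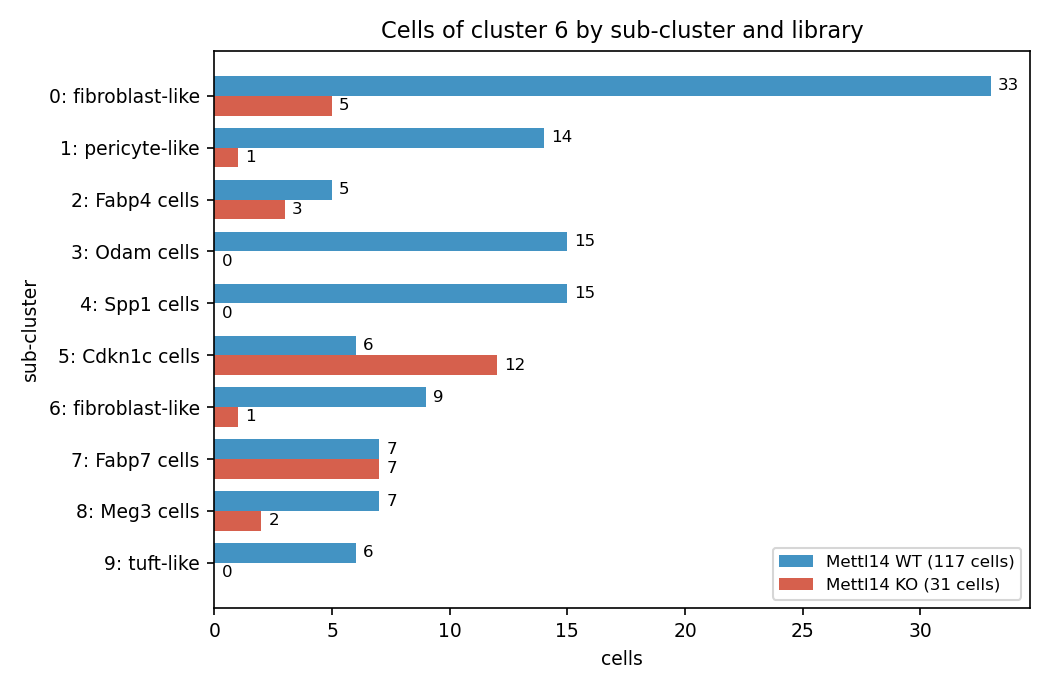
Number of cells of cluster 6 in each of 10 sub-clusters for the Mettl14 WT library (117 cells) and the Mettl14 KO library (31 cells). Sub-clusters 3, 4 and 9 hold 15, 15 and 6 WT cells and no KO cell, and sub-cluster 5 is the only one with more KO cells (12) than WT cells (6).

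The KO members were 31 cells of a different make-up. Collagen reached 3 UMIs in 7 of them, C1q in 1, and S100a8 and S100a9 or Spp1 in none. Epcam was found in 15 of the 31 cells and reached 3 UMIs in 10, and 12 of the 31 lay in sub-cluster 5. Col3a1 in the 7 collagen cells was 61, 53, 26, 26, 7, 7 and 2 UMIs, and Epcam was found in 1 of them, with 24 UMIs at a depth of 20768 UMIs. Between the 2 libraries' cluster 6, of 5572 measured genes 273 (4.90%) stood 2-fold or more above WT in the KO cells, and 431 (7.74%) stood as far below. These counts compare 2 libraries that held different sub-clusters. Without the WT sub-clusters that hold no KO cell, an alternative chosen after seeing the data, 225 genes stood above and 392 below. Spp1, Defb50, S100a9, S100a8 and Pbsn were lowest in KO, with no UMI there. Against a floor of 3 counts over the KO cells their summed levels were 91.2-fold, 78.7-fold, 57.4-fold, 44.5-fold and 15.1-fold lower. That floor counts UMIs and not cells. Spp1 lay in 15 WT cells, Defb50 in 8, S100a9 in 2, S100a8 in 3 and Pbsn in 7. A floor of 3 cells for 0 of 31 KO cells allows a share of up to 9.68%. The WT share was 1.71% for S100a8 and S100a9 and 12.8% for Spp1. The folds are therefore not bounds on how common such cells were in KO. Aldh1b1, Oit1, Pglyrp1 and Bace2 were among the highest, at log2 ratios of 2.53, 2.28, 2.46 and 3.41, and all 4 were lower in WT cluster 6 than in WT clusters 0 to 5. Eln was also among them, at 1095 against 130 CPM, with 90 of its 131 KO UMIs in 1 cell.

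Within the collagen cells alone (7 KO against 59 WT), of 2501 measured genes 171 (6.84%) stood 2-fold or more above WT in the KO cells, and 73 (2.92%) as far below. The WT cells held 277214 UMIs, so a gene near the cut of 20 UMIs could hardly be called below. Notch3, with 34 UMIs in WT and 0 in KO, was not called. The KO cell with 24 Epcam UMIs supplied 20768 of the 31670 KO UMIs, and several directions turned on it. Among collagen cells under 3 Epcam UMIs (6 KO with 10902 UMIs against 50 WT with 141827), of 1196 measured genes 44 (3.68%) stood above and 23 (1.92%) below. The same limit of depth holds, so in neither set are the counts above and below weighed against each other.

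Col3a1 stood at 5747 CPM in all KO collagen cells and 5757 CPM in the WT ones, a log2 ratio of 0.00 (-0.23 to 0.22), but at 11833 against 8172 CPM under 3 Epcam UMIs, a ratio of 0.53 (0.26 to 0.80). Col1a1 had a log2 ratio of -0.50 (-0.87 to -0.16) over all collagen cells and of 0.28 (-0.12 to 0.65) under 3 Epcam UMIs. For Col1a2 these were -0.58 (-0.94 to -0.23) and 0.02 (-0.40 to 0.41). Col3a1, Col1a1 and Col1a2 thus had no direction that held in both sets. The set under 3 Epcam UMIs is part of the set of all collagen cells, so a direction seen in both is not a second observation. Dcn stood above WT in both, at 0.85 (0.52 to 1.17) and 1.68 (1.31 to 2.04), as did Postn, at 0.48 (0.02 to 0.91) and 1.19 (0.68 to 1.66). Mfap4 stood below WT in both, at -2.82 (-5.11 to -1.25) and -2.02 (-4.31 to -0.44), and so did Aspn, at -1.69 (-2.77 to -0.79) and -0.99 (-2.07 to -0.09). Rgs5 stood at -1.50 (-2.43 to -0.71) and, with an interval reaching equal levels, at -0.64 (-1.57 to 0.16), with 1 pericyte-like cell among the KO cells. With 1 library per genotype and so few KO cells, genotype and the cells sampled cannot be told apart.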

How the data were processed

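The authors deposited UMI counts, whole numbers per gene symbol and cell, and a table giving each cell's library and cluster, of which only membership (other values) was used here. Per the submitters' processing notes, bcl2fastq, Cell Ranger and mm10 were used; versions, filter and clustering method are not given in the sources used here. Each group's counts were added up per gene and scaled to its total (CPM). Members and gene lists were chosen with earlier results of these data known. Genes were called at 2-fold with a 95% interval that excluded equal levels and at least 20 UMIs. A cell carried a gene group at 3 UMIs. Ratios were tested on simulated data. Named genes were the 5 markers and the carrier genes, Epcam, Mettl14 and Mettl3, the 25 leading genes by lower bound (50 UMIs in 10 cells), up to 6 per gene list and 4 per marker list by level, 8 per carrier group, and the 5 highest and 5 lowest in KO with 20 CPM; predicted genes were not named. Genes leading a sub-cluster and genes shown for single cells or sub-clusters were chosen after their values were seen. Sub-clusters came from scanpy 1.11.5 (2000 variable genes, 20 components, 10 neighbours, Leiden resolution 1) and were named only from marker lists. No doublets were removed; an alternative left out cells in which Xist and a Y-linked gene were both found. Other alternatives changed the scaling, the weight of cells and clusters, the gene filter, the UMI cut, depth and clustering. A few genes within these rules are not reported here. Positions count from 1.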

Additional observations from a re-analysis of the deposited data

How the results depend on the processing

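The 2294 genes higher in WT cluster 6 became 3451 by the mean of per-cell CPM without an interval, 1523 with at least 100 UMIs and 1021 against the highest of clusters 0 to 5; 6 other alternatives stayed within 1.5 times. WT collagen cells numbered 48 at 10 UMIs, and the KO C1q cell was lost (0) at 10 UMIs and after thinning. KO against WT called 1911 genes (608 higher, 1303 lower) by the mean of per-cell CPM, 431 higher without a filter, and 67 (44 higher, 23 lower) in collagen cells with fewer than 3 Epcam UMIs, an alternative chosen after seeing the data. The WT share of cluster 6 was 4.62% once cells under 1000 UMIs or over 10% mitochondrial were dropped. In all, 66 of 80 alternative values of the main results stayed within their counting interval or 1.5 times. Some of these could not move. The KO counts of S100a8 and S100a9 cells and of Spp1 cells were 0 and stay so under a stricter cut or thinning. Totals were also tallied beside their parts, so the tally is not a measure of robustness. Leiden resolutions 0.5 and 2, also chosen after seeing the data, gave 7 and 12 sub-clusters; the Spp1, tuft-like and Fabp7 sub-clusters kept all their cells. In collagen cells under 3 Epcam UMIs the KO to WT log2 ratios turned to 0.28 for Col1a1 and 0.0210 for Col1a2. No paired analysis was possible because each genotype had 1 library.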

Other observations

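Many stress and interferon genes stood higher in WT cluster 6 than in the epithelial clusters of the WT library. Of 15 immediate early genes, which answer cell stress and growth signals within minutes, 11 were at least 2-fold higher in cluster 6, where 16.4% of all measured genes were (median log2 ratio 1.34). Jun stood at 1104 CPM against 435 CPM, Egr1 at 622 CPM against 119 CPM and Fosb at 537 CPM against 121 CPM. The list stood at 6475 CPM in the collagen cells, 5571 CPM in the cells without any of the 4 groups and 4259 CPM in the Spp1 cells, against 2099 CPM in clusters 0 to 5. Of 16 interferon-response genes 8 were higher (median 1.24), with Ifitm3 at 625 CPM against 118 CPM. Of 12 complement genes 9 were higher. The C1 inhibitor Serping1 stood at 97.4 CPM and the protease C1s1 at 40.8 CPM, against 0.252 and 0.118 CPM.

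None of the 18 m6A factors was at least 2-fold higher or lower with an interval that excluded equal levels (median -0.19). Their summed level was 634 CPM in WT cluster 6 and 682 CPM in WT clusters 0 to 5. The 11 pancreatic enzyme genes summed to 65.9 CPM in WT cluster 6 against 1435 CPM in WT clusters 0 to 5, and 10 of the 10 measured were at least 2-fold lower. Chemokines and cytokines were mixed, with 7 of 24 higher and 5 lower, against 16.4% and 4.89% of all measured genes. Ccl11 stood at 87.9 CPM against 0.0839 CPM, and Ccl6 at 94.2 CPM against 430 CPM.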
